A study of Caenorhabditis elegans with 80 samples.

Results

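Transcripts of the mitochondrial ribosomal proteins were followed in whole Caenorhabditis elegans larvae exposed to acrylamide, cadmium or mercury. The 59 genes had a probe set that was annotated to 1 gene symbol, or to a current symbol through its Entrez identifier, and that symbol starts with mrpl- (large subunit, 34 genes) or mrps- (small subunit, 25 genes). They were taken from 17118 genes with a probe set of their own, and a gene with several probe sets was read on the one of highest mean signal. Of the 59, 37 carry the number of a bacterial ribosomal protein and 22 a number used for proteins that only mitochondrial ribosomes have. The probe set of 13 genes has a suffix that marks possible cross-hybridization. RefSeq lists 71 genes with such symbols, and the remaining 12 were not analysed here, among them mrpl-13 and mrpl-58, whose probe sets are shared with another gene.

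Mitochondrial ribosomes translate the few messages of the mitochondrial genome, which code for core subunits of the respiratory chain and of the ATP synthase. Their RNAs are made in the organelle, but the ribosomal proteins are encoded in the nucleus, made in the cytosol and imported. In C. elegans, the copy number of mitochondrial DNA rises strongly between the L4 stage and adulthood, and knockdown of mrps-5 is known to unbalance nuclear and mitochondrial subunits, to induce the mitochondrial unfolded protein response and to lengthen life.

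Worms had been synchronised by bleaching, grown in CeHR, an axenic liquid medium, and exposed once they had reached mid L4, the final stage before adulthood. Each chemical had its own series of 9 groups: controls without chemical at 0 h, 4 h and 8 h, and a low, a mid and a high dose at 4 h and 8 h. In mg/L, the doses of acrylamide were 100, 500 and 1000, those of cadmium 5, 20 and 50, and those of mercury 5, 10 and 25. All groups share the stage, the medium and the whole-body sample, and no strain is named in the labels. Every group held 3 arrays except cadmium mid dose at 4 h with 2, which gives 80 arrays in 27 groups. The labels do not say whether replicates were separate cultures, and they describe the 0 h control as 1 flask, so every p-value here rests on the spread among these arrays alone, and that spread may be technical.

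Values are MAS5 signals, an intensity in arbitrary units, after each array was centred on a common median of 202.9. The deposited medians ran from 80.32 to 282.2, and the lowest belongs to replicate 1 of the acrylamide control at 0 h, the only array whose trimmed mean, 214.9, lay away from the 500.1 to 500.2 of the others. Arrays of a group correlated with each other between 0.831 and 0.981 (mean r per array, median 0.964). The lowest value belongs to the pair of cadmium mid-dose arrays at 4 h, where replicate 1 stood apart: its signals for the 59 genes scattered around their typical levels with an SD of 1.19 on the log2 scale, against 0.509 or less in all other arrays. In centred arrays, counts of called genes among the 59 are given with and without either array in comparisons that use its signals. Splits by subunit, tallies over several comparisons, other gene groups and tissue markers include both arrays. So do the correlations under other observations. No germline, sperm, muscle, intestine or neuron marker was at 0 in any group. This cannot show that the markers were detected, because MAS5 signals lie above 0 for unexpressed genes too.

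The mean signal over all 80 arrays ran from 19.1 for mrps-31 to 2812 for mrpl-44, with a median of 818.2 over the 59 genes. After mrpl-44, a large-subunit protein of the ribonuclease III fold, came mrpl-51 with 1956 and mrps-18B with 1704. At the low end stood mrps-26 with 198.2, mrpl-45 with 97.2 and mrps-31. To be tested, a gene needed a signal above 132 in 3 or more arrays of its series. The gene mrps-31 exceeded it in 0 arrays and mrpl-45 in 15 arrays, too few of them in the mercury series for a test there. This left 58, 58 and 57 genes tested in the acrylamide, cadmium and mercury series. Each probe set binds with its own strength, so these signals do not rank the genes by transcript amount.

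Across the 27 groups most of the genes moved together. Taking the group means on the log2 scale, the Pearson correlation of each gene with the mean of the others had a median of 0.786 (27 groups, which share arrays and scaling, so no p is given). It exceeded 0.8 for 26 genes and reached 0.951 for mrpl-35. It lay under 0.5 for 8 genes, among them the dim mrpl-45 with -0.11 and mrps-31 with 0.072. Of well detected genes the lowest values were -0.20 for mrps-11, -0.18 for mrpl-9 and 0.164 for mrps-5. These 3 are homologues of bacterial proteins: S11 lies on the platform of the small subunit, S5 near the channel where mRNA enters, and L9 is an elongated protein on the outside of the large subunit. Without the cadmium mid-dose group at 4 h the median was 0.847, and the values of these 3 genes were -0.18, -0.21 and 0.138. The plot of the median over the genes per array shows the common pattern by time and dose.

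**Figure D1:**
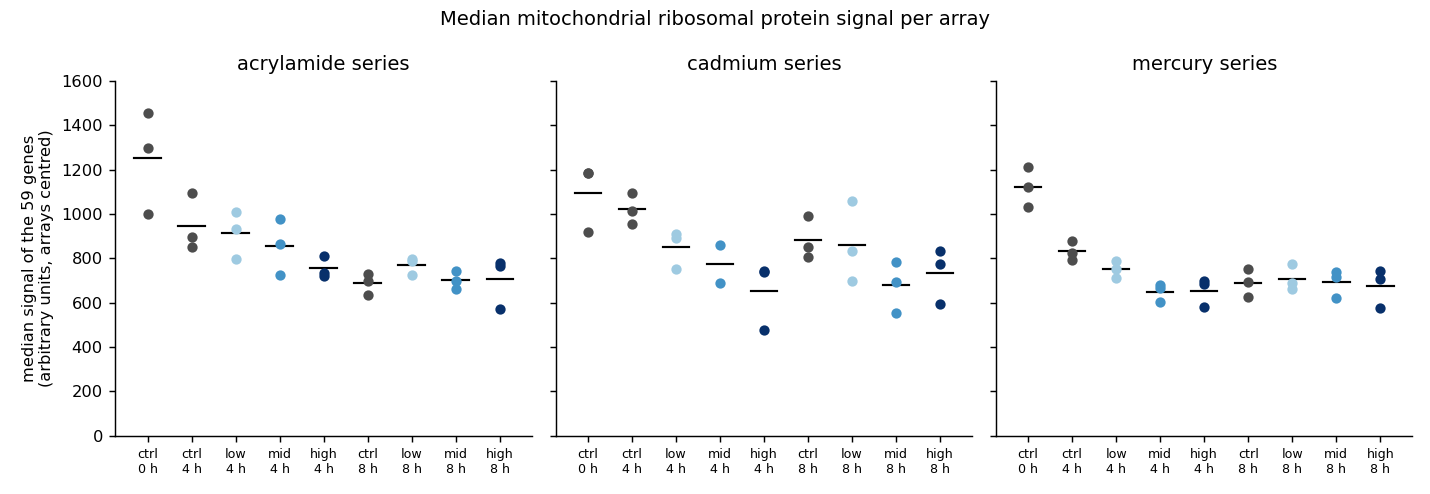
Median signal of the 59 mitochondrial ribosomal protein genes on each array (points; arbitrary units after centring) and the mean of each group (lines), by series, time and dose (ctrl, unexposed control). Controls at 0 h stand highest in each series, with group means of 1251, 1096 and 1123 for the acrylamide, cadmium and mercury series.

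In unexposed worms of the acrylamide and mercury series most of the genes were lower at 8 h than at 0 h. In the acrylamide series 43 of 58 genes fell by limma with an adjusted p under 0.05 and 0 rose, while 23.8% of all genes tested fell. The median log2 change of the 58 genes was -0.79, against -0.21 over all genes tested. Of the 58 changes 57 were negative, as were 7966 of 12582 over all genes tested. In the mercury series 43 of 57 fell and 0 rose, with 29.1% of all genes lower and medians of -0.64 for the family and -0.21 for all genes. The fall showed in both subunits: 24 of 34 large-subunit and 19 of 24 small-subunit genes in the acrylamide series, and 24 of 33 and 19 of 24 in the mercury series. The 2 sets of 43 had 36 genes in common, which is 83.7% of each. Without replicate 1 of the acrylamide 0 h control, 43 genes were again called lower, 40 of them the same, with medians of -0.92 for the family and -0.23 for all genes. In samples of whole worms, fewer cells of a type and less RNA per cell cannot be told apart.

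The gene mrpl-12, homologue of the bacterial stalk protein that contacts translation factors, had signals of 1098, 1051 and 989 in acrylamide-series controls at 8 h, against 1542, 2690 and 3227 at 0 h. In the mercury series it had 937, 1247 and 897 at 8 h, against 2447, 1968 and 1780 at 0 h. No array overlapped in either series, and the log2 changes were -1.15 (SE 0.269, adjusted p = 0.0023) and -0.98 (SE 0.160, adjusted p = 1.82e-05). Without the acrylamide array that stood apart, the first of 1542, the change was -1.45 (SE 0.272, adjusted p = 0.000329). For mrpl-15, homologue of a bacterial large-subunit core protein, controls at 8 h read 462, 484 and 570 in the mercury series, against 1050, 964 and 1142 at 0 h, a log2 change of -0.99 (SE 0.183, adjusted p = 8.83e-05). Genes that recur in the dose comparisons fell too in the acrylamide and mercury series. On the log2 scale mrps-5 fell by 0.80 and 0.63, and mrpl-44 by 0.61 and 0.47. The mrpl-44 probe set without a suffix changed by -0.296 (adjusted p = 0.351) and -0.155 (adjusted p = 0.593). Its remaining probe set changed by -0.62 (adjusted p = 0.0291) and -0.351 (adjusted p = 0.102). The falls of mrpl-9 and mrps-11 passed the test in the acrylamide series, by 0.64 and 0.84, and not in the mercury series, with log2 changes of -0.37 (adjusted p = 0.124) and -0.42 (adjusted p = 0.0701). Without that array the acrylamide-series changes of mrps-5, mrpl-44, mrpl-9 and mrps-11 were -0.99, -0.75, -0.79 and -1.12, all called.

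In the cadmium series, limma called 0 of 58 genes between 8 h and 0 h, where 21% of all genes were called in either direction. At an unadjusted p under 0.05, 6 of the 58 genes were lower and 0 higher. Of all 12349 genes tested, 1988 were lower and 1972 higher at that threshold. The median log2 change was -0.30, against -0.12 over all genes. The difference between the series was not tested.

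The count of called genes depended on scaling. Deposited array medians were 211.5 to 223.6 at 8 h and 80.32 to 174.2 at 0 h in the acrylamide series, and 205 to 224.9 at 8 h and 158 to 189.7 at 0 h in the mercury series. In the authors' scaling 0 genes were called in the acrylamide series and 25 in the mercury series; with quantile normalization 21 and 24 were called, all lower. In the authors' scaling the median over all genes of the acrylamide series was itself 0.40 higher at 8 h, and that of the family -0.08. Relative to the median of all genes, the family stood at -0.58 in centred arrays, -0.47 in the authors' scaling and -0.35 after quantile normalization in the acrylamide series, and at -0.43, -0.40 and -0.26 in the mercury series. The authors' scaling without replicate 1 of the acrylamide 0 h control called 24 lower, with medians of -0.52 for the family and 0.118 for all genes.

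**Figure D2:**
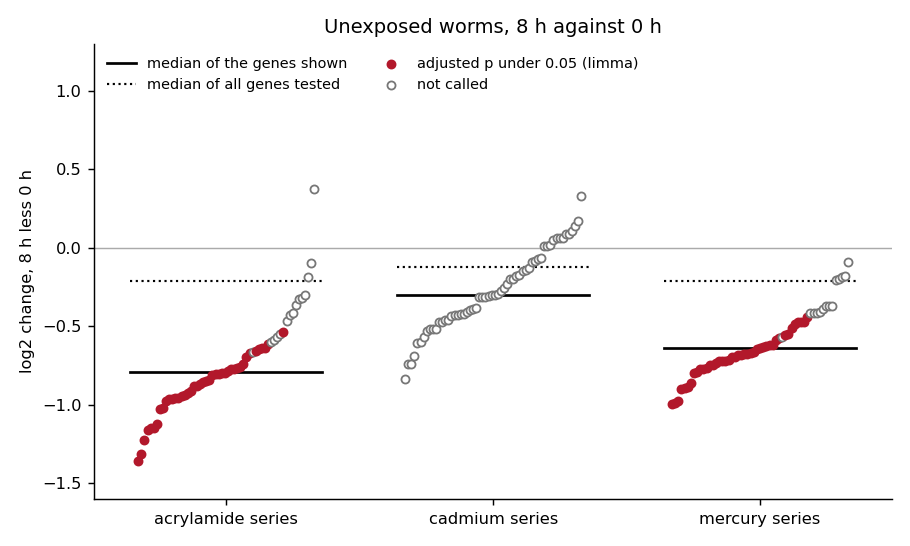
Log2 change of each tested gene between unexposed worms at 8 h and at 0 h, in order of size within each series (filled, adjusted p under 0.05 by limma; open, not called), with the median of these genes (solid line) and of all genes tested (dotted line). The genes lie mostly under the dotted line, with medians of -0.79, -0.30 and -0.64 in the acrylamide, cadmium and mercury series.

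Other gene groups moved over the same 8 h. Nuclear genes of the respiratory chain and ATP synthase fell for 33 of 35 and 28 of 35 in the acrylamide and mercury series, cytosolic ribosomal proteins for 71 of 74 and 23 of 74, and proteasome subunits for 26 of 33 and 27 of 33. The mitochondrial translation factors fell for 3 of 6 in the acrylamide series, tufm-1, tsfm-1 and gfm-1 (elongation factors Tu, Ts and G), and for 5 of 6 in the mercury series. In the cadmium series limma called 1 of 35, 0 of 74, 0 of 33 and 0 of 6 genes of these 4 groups lower. Their median log2 changes there were -0.45, -0.26, -0.35 and -0.32. Markers of other tissues moved in both directions. Germline and oocyte markers rose for 11 of 15 in the acrylamide and mercury series and 13 of 15 in the cadmium series. Sperm markers rose for 9 of 9, 7 of 9 and 9 of 9 in the acrylamide, cadmium and mercury series. The summed signal of the germline and oocyte markers ranged from 21476 to 34865 at 8 h and from 12056 to 14248 at 0 h in the acrylamide series, and from 26214 to 33531 at 8 h and from 12766 to 16428 at 0 h in the mercury series. That of the sperm markers ranged from 22490 to 25894 at 8 h and from 1979 to 7518 at 0 h in the acrylamide series, and from 23225 to 28154 at 8 h and from 3651 to 7211 at 0 h in the mercury series. Markers of 3 other tissues had 0 called higher and some lower: muscle 5 and 4 of 10, intestine 6 and 2 of 10, and neurons 3 and 6 of 10 in the acrylamide and mercury series. In these series the summed muscle signal ranged from 46459 to 54377 and from 50504 to 59391 at 8 h, against 60268 to 112856 and 62551 to 84267 at 0 h. The intestine sum ranged from 50403 to 58241 and from 57278 to 73656 at 8 h, against 68919 to 139070 and 64571 to 93551 at 0 h. The neuron sum ranged from 7335 to 8784 and from 7448 to 8417 at 8 h, against 10003 to 14891 and 10694 to 12920 at 0 h. In the cadmium series 0 of 10 muscle, 0 of 10 intestine and 0 of 10 neuron markers were called. Their median log2 changes there were -0.27, -0.29 and -0.28. In acrylamide, cadmium and mercury controls, the actin 3' to 5' log2 ratio, a measure of transcript integrity, also differed (SD, n = 3). At 8 h it was 0.97 ± 0.095, 0.876 ± 0.25 and 1.01 ± 0.0966. At 0 h it was 0.887 ± 0.179, 0.787 ± 0.231 and 0.773 ± 0.109. That of GAPDH was 0.0737 ± 0.064, 0.0104 ± 0.0593 and 0.165 ± 0.0468 at 8 h. At 0 h it was 0.139 ± 0.0362, 0.11 ± 0.0526 and 0.0694 ± 0.048. The part of these tissues and of RNA integrity in the change of the family was not tested.

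The map of all dose comparisons shows which genes were called. Over the 18 comparisons of a dose with the control of the same time, 29 of the 59 genes were never called. Of the others, 25 were called lower in at least 1 comparison and never higher, 4 were called higher and never lower, and mrpl-50 in both directions. The 29 include mrps-31, which was never tested, and mrpl-45 was not tested in the mercury series. This tally was not made over all genes, of which 17.9% rose and 14.7% fell at 8 h of high mercury alone. The gene called most often was mrpl-44, lower in 7 comparisons on a probe set with a suffix. Its probe set without a suffix was not called in any of them. Log2 changes there ran from -0.22 (mercury high dose 8 h) to 0.34 (cadmium mid dose 4 h). The other one, of mean signal 786.6, was called only at 4 h of high cadmium and at 4 h and 8 h of high mercury. On the higher side mrpl-9 was called in 5, mrps-5 in 4 and mrps-11 in 3. Called genes described below at the high doses were mostly chosen for a lack of overlap with controls. Their lack of overlap is therefore no separate support.

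**Figure D3:**
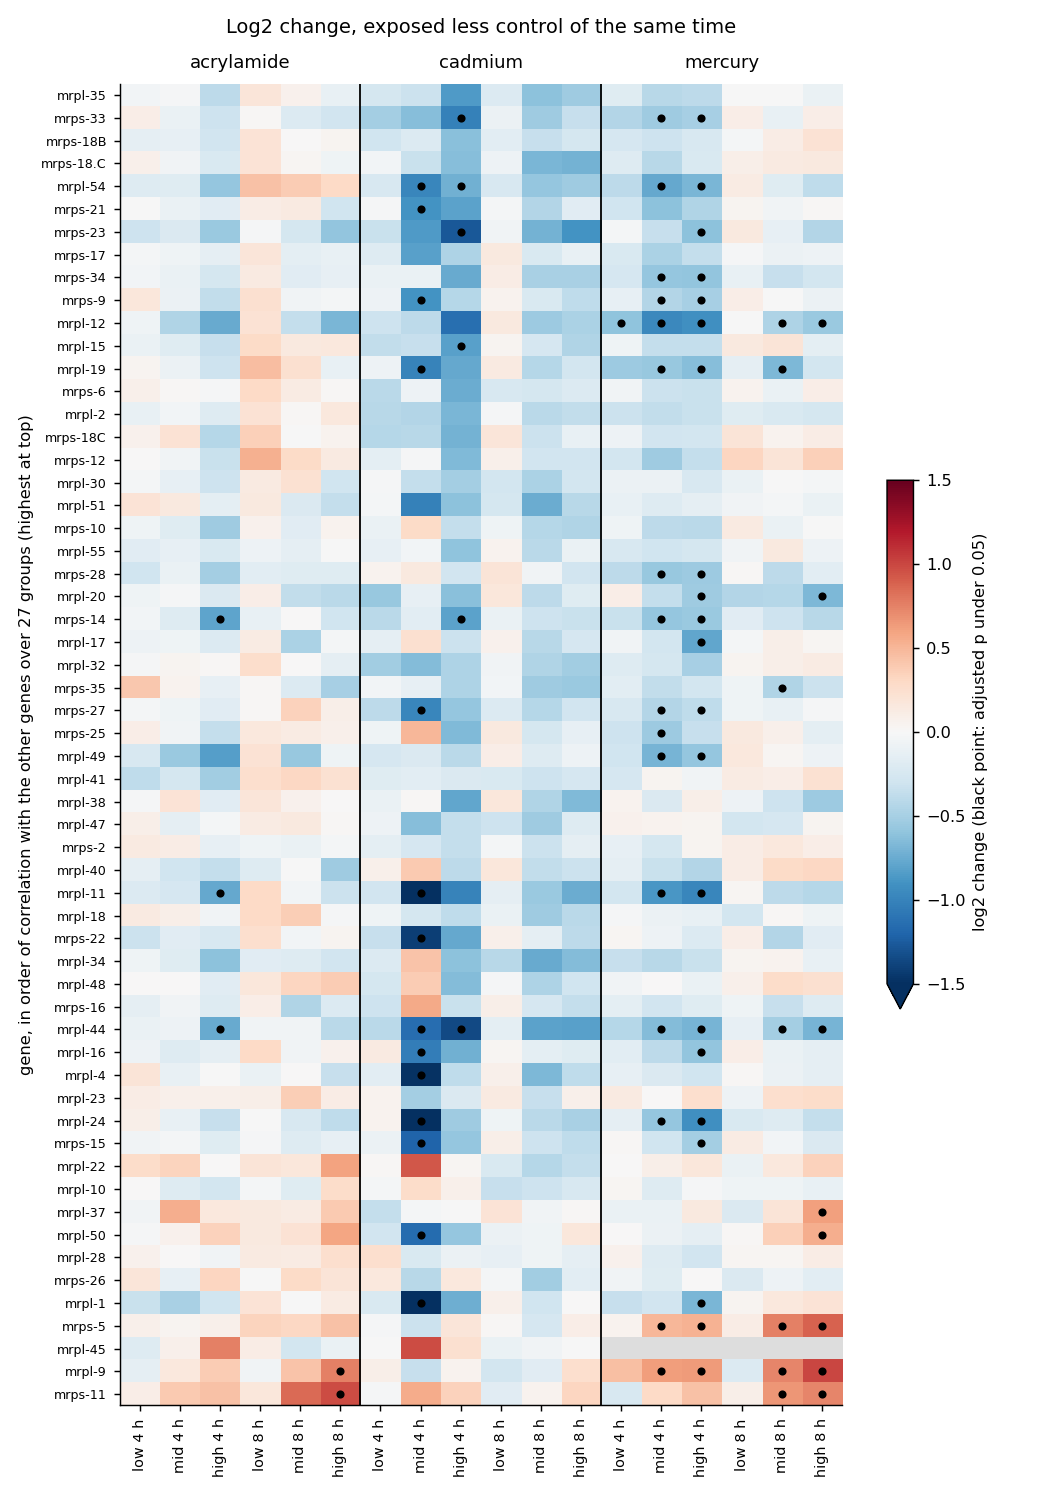
Log2 change of each gene against unexposed worms of its own series and time (colour, from -1.5 to 1.5; larger changes take the end colour) for 18 dose comparisons. Black points mark an adjusted p under 0.05 by limma, grey cells were not tested, and genes run from the highest correlation with the others at the top to the lowest at the bottom. Points in blue cells gather in cadmium and mercury at 4 h, and those in red cells sit on mrps-5, mrpl-9 and mrps-11 at the bottom, with mrpl-37 and mrpl-50 above.

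Under mercury many of the genes fell at 4 h and a few rose. With the high dose 19 of 57 fell and 2 rose, where 14.1% of all genes fell and 9.44% rose. The median log2 change of the family was -0.34, against -0.05 over all genes. With the mid dose 14 fell and 2 rose (9.72% and 7.33% of all genes), and with the low dose 1 gene fell, mrpl-12 (1.7% of all genes fell). The slope over control, low, mid and high dose was negative for 20 and positive for 3 genes (15.7% and 11.6% of all genes). Large and small subunit shared in the high-dose fall, with 11 of 33 and 8 of 24 genes.

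The largest falls at 4 h of high mercury were those of mrpl-11 and mrpl-12, homologues of proteins of the factor-binding stalk. Signals of mrpl-12 were 1589, 1167 and 1518 in 4 h controls, 1031, 907 and 801 after low, 794, 713 and 604 after mid, and 703, 711 and 745 after high mercury. Every exposed array lay under every control array. The log2 changes were -0.61 (SE 0.160, adjusted p = 0.0315), -0.96 (SE 0.160, adjusted p = 5.85e-05) and -0.92 (SE 0.160, adjusted p = 7.39e-05) at low, mid and high dose. Homologous to the protein at the base of that stalk, mrpl-11 had 544, 730 and 506 at the high dose, against 1226, 1338 and 1068 in controls. The groups did not overlap, and the log2 change was -0.98 (SE 0.188, adjusted p = 0.000267).

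Signals of mrpl-24, whose bacterial homologue starts the assembly of the large subunit, were 203, 209 and 222 at the high dose, against 450, 532 and 370 in controls, a log2 change of -0.92 (SE 0.187, adjusted p = 0.000508). Those of mrpl-44 were 2208, 2355 and 2731, against 4317, 3746 and 3832 (log2 change -0.70, SE 0.173, adjusted p = 0.00361). Neither gene had overlapping groups. In mrpl-44 the 3 probe sets of the gene disagree. The second, of mean signal 786.6, changed by -0.59 (adjusted p = 0.0126), while the third, of mean signal 213.3 and the only one without a suffix, changed by 0.18 (adjusted p = 0.603).

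Against that direction, 2 genes rose at 4 h of mercury. Signals of mrpl-9 were 1953, 2162 and 2381 at the high dose, against 1573, 1262 and 1296 in controls (log2 change 0.64, SE 0.192, adjusted p = 0.0164). Those of mrps-5 were 1318, 1656 and 1634, against 1103, 1035 and 1022 (log2 change 0.52, SE 0.172, adjusted p = 0.0297). Exposed and control arrays did not overlap in either gene. Both calls are near the threshold: mrps-5 was not called without control replicate 1, 2 or 3 or high-dose replicate 2 or 3 (adjusted p 0.0546 to 0.103), nor mrpl-9 without control replicate 2 or 3 or high-dose replicate 3 (0.0525 to 0.0681). The count of 21 called genes was 11 without control replicate 1, 11 without high-dose replicate 1 and 12 without control replicate 3. At the mid dose the count of 16 was 9, 10, 9 and 8 without control replicate 1, mid-dose replicate 1, control replicate 3 and mid-dose replicate 3. The single low-dose call of mrpl-12 was lost without control replicate 1 or 3 or low-dose replicate 2 or 3.

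After 8 h of mercury genes were called in both directions. At the high dose 5 of 57 genes rose and 3 fell, where 17.9% of all genes rose and 14.7% fell, and the family's median log2 change was -0.07, against 0.01 over all genes. At the mid dose 3 rose and 4 fell (10.7% and 7.76% of all genes), a count of 7 that was 3, 4 and 2 without control replicate 1, control replicate 2 and mid-dose replicate 3. At the low dose limma called 0 genes, where 0.746% of all genes were called. At an unadjusted p under 0.05, 0 were higher and 1 lower there, against 572 and 298 of all 12060 genes tested. The slope over dose was positive for 5 and negative for 8 genes (21% and 17.5% of all genes). The difference between the 2 times was not tested.

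The largest rise was that of mrpl-9, with 1076, 1305 and 1178 in 8 h controls, 896, 979 and 1200 at the low dose, 1496, 1972 and 2685 with mid, and 1929, 2400 and 3086 with high mercury. The mid and high arrays lay above all controls and the low ones did not. The log2 change at the high dose was 1.01 (SE 0.192, adjusted p = 0.000175), a 2.01-fold rise. Signals of mrps-5 were 868, 899 and 885 in controls, 940, 1051 and 898 at the low dose, 1284, 1641 and 1675 with mid, and 1156, 2093 and 1917 with high mercury. Its log2 change at the high dose was 0.88 (SE 0.172, adjusted p = 0.000228). The low-dose array of 898 lay between the controls, and all mid and high arrays lay above them.

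For mrps-11 the high-dose arrays at 8 h read 1566, 2292 and 2662, against 1406, 1064 and 1331 in controls, with no overlap and a log2 change of 0.73 (SE 0.183, adjusted p = 0.00287). Rises of mrpl-9, mrps-5 and mrps-11 at 8 h of high mercury passed the test under all 13 alternatives run, among them the authors' scaling and each array left out. The mitochondria-specific mrpl-37 had 233, 383 and 349, against 229, 133 and 215 (log2 change 0.61, SE 0.232, adjusted p = 0.045). Its groups did not overlap, but its call was lost under 5 of the 13 alternatives, those without filter and without control replicate 2 or 3 or high-dose replicate 2 or 3. The mitochondria-specific mrpl-50 also rose, by a log2 change of 0.55 (adjusted p = 0.00994), and is named because only 5 genes rose.

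The 3 genes that fell at 8 h of high mercury had fallen at 4 h as well. Signals of mrpl-44 were 1390, 2386 and 2331, against 3033, 3511 and 3233 in controls, a log2 change of -0.70 (SE 0.173, adjusted p = 0.00243). Its second probe set changed by -0.451 (adjusted p = 0.0447) and the one without a suffix by -0.22 (adjusted p = 0.458). Those of mrpl-20, homologue of a bacterial protein needed early in large-subunit assembly, were 771, 770 and 826, against 1307, 1287 and 1266 (log2 change -0.67, SE 0.165, adjusted p = 0.00241). Those of mrpl-12 were 621, 759 and 655, against 937, 1247 and 897 (log2 change -0.55, SE 0.160, adjusted p = 0.009; 0.0727 without control replicate 2). No groups overlapped in these genes, as their choice required.

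**Figure D4:**
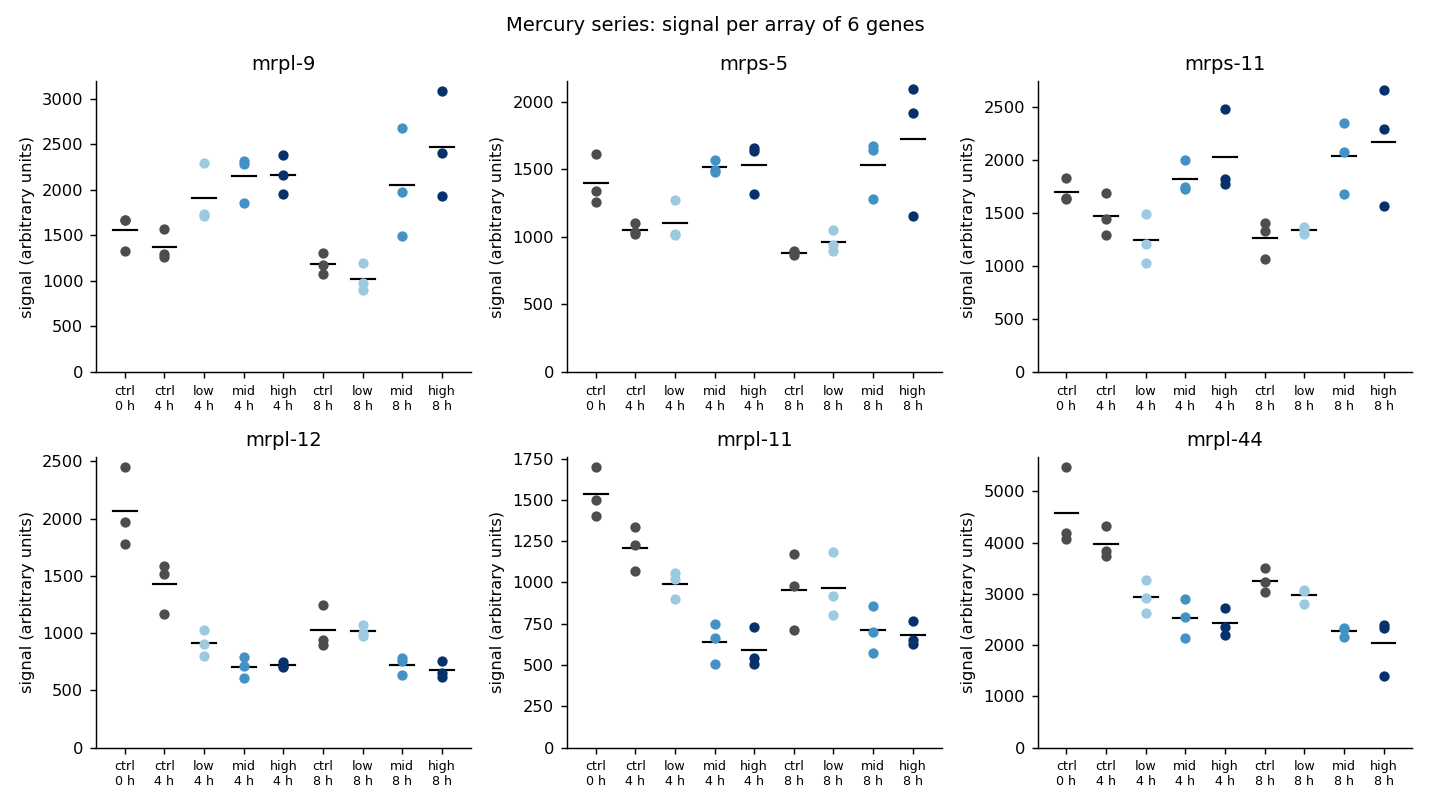
Signal per array (points, arbitrary units) and group means (lines) of 6 genes in the mercury series, by time and dose (ctrl, unexposed control). The upper row shows mrpl-9, mrps-5 and mrps-11, whose high-dose arrays lie above the controls at both times, and the lower row mrpl-12, mrpl-11 and mrpl-44, whose 0 h control mean is highest and whose high-dose arrays at 4 h lie under the controls.

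Around these genes, other mitochondrial genes fell under mercury. Of the 35 nuclear respiratory chain and ATP synthase genes, 16 fell at 4 h and 21 at 8 h of the high dose, and 0 rose, with medians of -0.47 and -0.52. Of 6 mitochondrial translation factors 3 fell at 4 h, tufm-2 by 0.68 and tufm-1 by 0.48 on the log2 scale among them, both genes of the mitochondrial elongation factor Tu. At 8 h tufm-1 alone fell, by 0.42. The list of the mitochondrial stress response and its proteases had 12 genes tested, with medians of -0.22 at 4 h and -0.03 at 8 h. In it hsp-60, the mitochondrial chaperonin, fell by 1.28 at 4 h and 1.18 at 8 h. In the same list phb-2, a prohibitin of the inner membrane, fell by 0.66 and 0.48, and dve-1, a transcription factor of the mitochondrial unfolded protein response, rose at 8 h with a log2 change of 0.66 (adjusted p = 0.0118). Of 74 cytosolic ribosomal protein genes limma called 0 at either time, with 0 at 4 h and 3 higher at 8 h at an unadjusted p under 0.05. None of the 12 mitochondrially encoded subunits was matched to a probe set.

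Tissue markers and the RNA measure from actin moved with high mercury too, while that from GAPDH stayed within its spread. At 4 h and 8 h, 7 and 10 of 15 germline and oocyte markers fell, and 6 and 8 of 10 body wall muscle markers. Intestine markers fell for 6 and 7 of 10 and rose for 1 and 0. Neuron markers rose for 1 and 6 of 10. The actin 3' to 5' log2 ratio, a measure of transcript integrity, was 1.31 ± 0.129 at 4 h and 1.53 ± 0.127 at 8 h of the high dose. Controls had 0.855 ± 0.0777 and 1.01 ± 0.0966 (SD, n = 3). The same ratio for GAPDH was 0.0562 ± 0.0534 and 0.163 ± 0.149, against 0.0407 ± 0.112 and 0.165 ± 0.0468 in controls. The summed germline and oocyte signal ranged from 12968 to 15618 and from 12693 to 16807 at 4 h and 8 h of the high dose, against 19171 to 21200 and 26214 to 33531 in controls. That of muscle ranged from 38193 to 54631 and from 24119 to 32262, against 61571 to 86077 and 50504 to 59391, and that of intestine from 43749 to 72968 and from 38851 to 50122, against 65733 to 90241 and 57278 to 73656. That of neurons ranged from 9879 to 13135 and from 11098 to 13046, against 9002 to 10700 and 7448 to 8417. Their part in the changes of the family was not tested.

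After 4 h of cadmium some of the genes fell and none was called higher. At the high dose 6 of 58 genes fell and 0 rose, where 4.66% of all genes fell. The median log2 change of the family was -0.58, against -0.13 over all genes. Of the 58 changes 51 were negative, as were 7526 of 12349 over all genes tested. At an unadjusted p under 0.05, 26 were lower and 0 higher, against 1817 lower and 916 higher over all genes. At the low dose limma called 0 genes, where 0.68% of all genes were called. At an unadjusted p under 0.05, 1 was lower and 0 higher there, against 220 lower and 263 higher over all genes. The slope over dose was negative for 17 genes and positive for 0 (8.84% of all genes had a called negative slope). The count of 17 was 6, 9, 10 and 6 without control replicate 1, 2 and 3 and high-dose replicate 3.

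Signals of mrpl-44 were 1946, 2015 and 773 at the high dose, against 4388, 3781 and 3326 in 4 h controls, a 2.57-fold fall (log2 change -1.36, SE 0.329, adjusted p = 0.00968). All exposed arrays lay under all controls, and the second probe set changed by -0.95 (adjusted p = 0.0246) and the third by 0.09 (adjusted p = 0.855). The mitochondria-specific small-subunit gene mrps-23 had 815, 673 and 442, against 1756, 1455 and 1548, with no overlap (log2 change -1.27, SE 0.290, adjusted p = 0.00583). The signal of mrps-33, also specific to mitochondria, was 1760, 1509 and 668, against 2896, 2659 and 2034 (log2 change -1.01, SE 0.284, adjusted p = 0.0278).

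For mrpl-15 the high-dose arrays read 576, 507 and 472, against 1018, 884 and 953 (log2 change -0.82, SE 0.233, adjusted p = 0.03), again without overlap. The other called genes were mrps-14, homologue of a protein of the small subunit's head, with a log2 change of -0.80 (adjusted p = 0.0197), and mrpl-54 with -0.72. The gene mrps-5 had 1333, 1574 and 1060, against 1181, 1161 and 1098, an overlap of the groups (log2 change 0.18, adjusted p = 0.739). The count of 6 was 1, 2 and 0 without control replicate 1, control replicate 2 and high-dose replicate 3, the array with the lowest values above. Without high-dose replicate 3, mrps-33 changed by -0.60 (adjusted p = 0.244).

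At the mid dose 14 genes fell and 0 rose, where 10.6% of all genes fell, and the 2 arrays differed. In replicate 1, mrpl-11 had 89.5, mrpl-24 17.8, mrpl-1 39.9 and mrpl-4 98.5, their lowest signals in any array. In replicate 2, mrpl-11 had 766 and mrpl-24 211, and mrps-11 had 3746 in replicate 1 and 993 in replicate 2. Without replicate 1, 2 genes were called, mrpl-11 with a log2 change of -1.11 (adjusted p = 0.0412) and mrpl-24 with -1.16 (adjusted p = 0.00842), named here because only these were called. Without replicate 2 the count was 25, 10 higher and 15 lower, and it was 6, 7 and 9 without control replicate 1, 2 and 3. With replicate 1 left out of the fit, 12 genes were called at 4 h of the high dose, all lower, and 18 had a called negative slope.

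**Figure D5:**
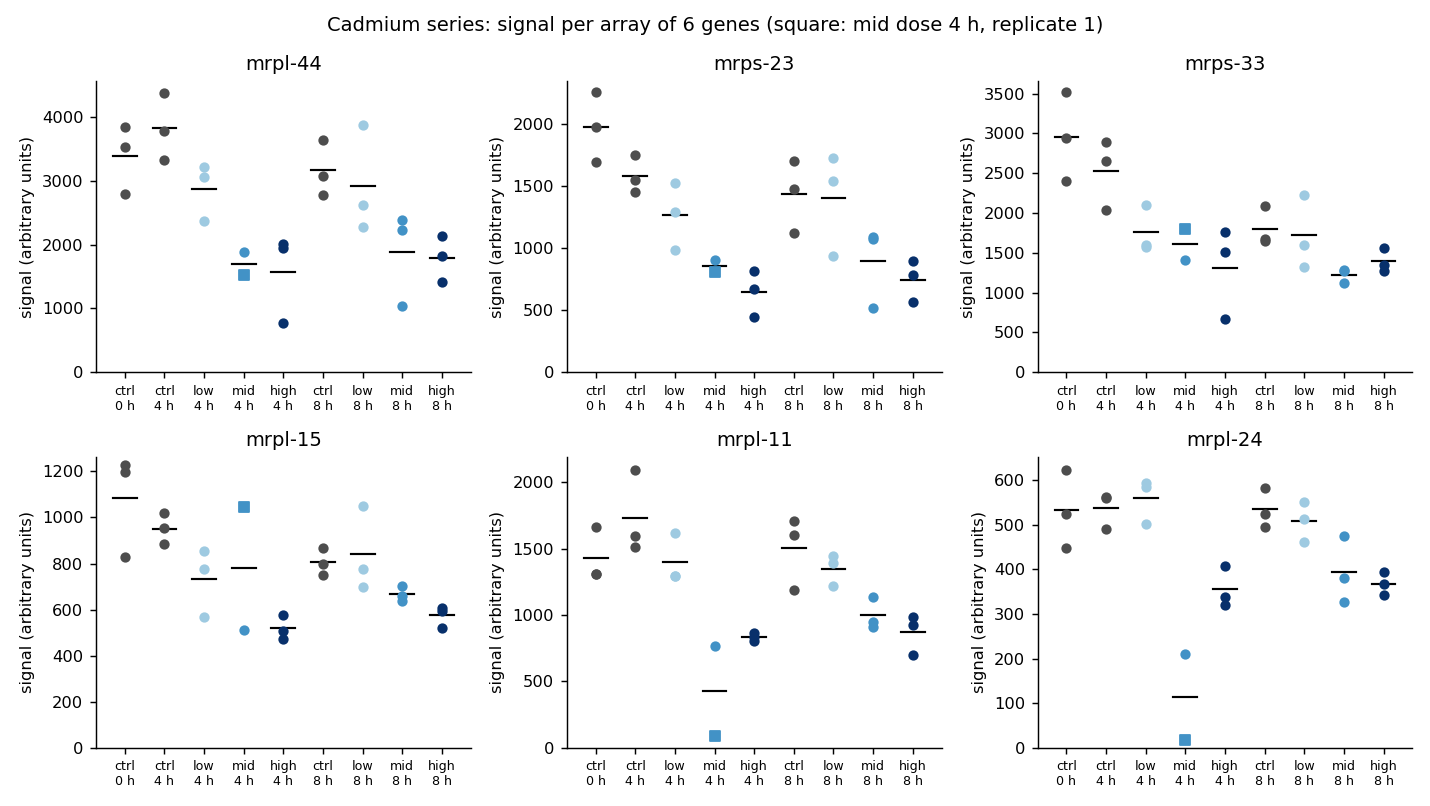
Signal per array (points, arbitrary units) and group means (lines) of 6 genes in the cadmium series, by time and dose (ctrl, unexposed control); the square is mid dose at 4 h, replicate 1. High-dose arrays at 4 h lie under all 4 h controls in each panel, and the square lies far below its partner for mrpl-11 and mrpl-24 and above it for mrpl-15.

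After 8 h of cadmium, limma called 0 of 58 genes at the low, mid and high dose, where 0.324%, 2.18% and 6.88% of all genes were called. At an unadjusted p under 0.05, 0 genes were called at the low dose, and 10 and 8 were lower at the mid and high dose with 0 higher. Of all 12349 genes tested, 793 and 1438 were lower at the mid and high dose by that threshold, and 667 and 1047 higher. The median log2 changes at mid and high dose were -0.39 and -0.29, against -0.12 over all genes at each. Of the 58 changes 57 and 51 were negative, against 7856 and 7579 of 12349 over all genes. The smallest p at the high dose was that of mrps-23, with 894, 782 and 562, against 1482, 1707 and 1119 in controls, without overlap (log2 change -0.90, SE 0.290, adjusted p = 0.0622). It passed the threshold under 6 of 14 alternatives, among them the authors' scaling (adjusted p = 0.0406) and quantile normalization (0.0189). It was also the only gene with a called slope over dose, negative, where 5.05% of all genes had one. That count of 1 was 0 without control replicate 1, control replicate 2 or high-dose replicate 3, 2 without mid-dose replicate 1 and 4 without low-dose replicate 3.

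With high cadmium the mitochondrial chaperonin gene hsp-60 fell by 1.47 at 4 h and 1.21 at 8 h on the log2 scale, and phb-1, a prohibitin, by 1.04 at 4 h. These were the only called genes of 13 in the mitochondrial stress list, whose medians were -0.16 and -0.22. Of the 35 respiratory chain and ATP synthase genes 4 fell at 4 h and 1 at 8 h, with medians of -0.80 and -0.56. For the 6 translation factors limma called 0 at both times, with 4 lower at 4 h and 1 lower at 8 h at an unadjusted p under 0.05. Germline and oocyte markers fell for 1 of 15 at 4 h and 11 of 15 at 8 h. The actin 3' to 5' log2 ratio was 1.07 ± 0.308 at 4 h of the high dose, against 0.645 ± 0.184 in controls. That of GAPDH was 0.113 ± 0.0659, against 0.00217 ± 0.0943. The summed germline and oocyte signal ranged from 7856 to 15654 at 4 h and 12359 to 16460 at 8 h of the high dose, against 19947 to 20138 and 28084 to 49950 in controls. Muscle markers fell for 1 of 10 at each time, intestine markers fell for 2 and rose for 1 of 10 at 4 h and rose for 2 at 8 h, and 0 of 10 neuron markers were called by limma (0 at 4 h and 1 higher at 8 h at an unadjusted p under 0.05). The summed muscle signal ranged from 29281 to 46832 and from 28436 to 41300 at 4 h and 8 h of the high dose, against 59192 to 69298 and 49760 to 60354 in controls. The intestine sum ranged from 45576 to 81920 and from 58113 to 84885, against 62275 to 78744 and 57977 to 72597 in controls. Their part in the change of the family was not tested.

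Acrylamide moved few of the genes. At the low and mid dose at 4 h and the low and mid dose at 8 h limma called 0 of 58, where 0.191%, 1.8%, 0.405% and 2.58% of all genes were called. At an unadjusted p under 0.05 these counts were 0, then 1 lower, then 2 higher, then 2 higher and 1 lower. Of all 12582 genes tested, 179, 633, 274 and 862 were higher by that threshold, and 94, 289, 110 and 492 lower. At 4 h of the high dose 3 genes fell and 0 rose, where 3.2% of all genes fell, and the median log2 change was -0.22, against -0.06 over all genes. The slope over dose was negative for 3 (3.7% of all genes) and positive for 0, a count that was 0 without control replicate 1, control replicate 3 or high-dose replicate 3, 1 without high-dose replicate 1 and 5 without low-dose replicate 1. After 8 h of the high dose 2 rose and 0 fell, where 4.46% of all genes rose, with a median of -0.02, against -0.06. The slope at 8 h was positive for 2 and negative for 1 (5.76% and 5.92% of all genes).

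At 4 h of high acrylamide mrps-14 had 685, 690 and 612, against 1240, 978 and 1370 in controls (log2 change -0.79, SE 0.215, adjusted p = 0.0234). Signals of mrpl-11 were 863, 900 and 950, against 1587, 1384 and 1782 (log2 change -0.77, SE 0.211, adjusted p = 0.0255). Those of mrpl-44 were 1966, 2093 and 1667, against 3890, 2789 and 3119 (log2 change -0.75, SE 0.222, adjusted p = 0.0422). The other mrpl-44 probe sets, of mean signal 786.6 and 213.3, were not called, with log2 changes of -0.55 (adjusted p = 0.163) and -0.14 (adjusted p = 0.84). Exposed arrays lay under all controls in each gene. In the authors' scaling 0 genes were called, and likewise 0 without control replicate 1 or 3 or any 1 of the high-dose arrays.

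At 8 h of high acrylamide mrps-11 had 1232, 2180 and 2307, against 880, 844 and 1005 (log2 change 0.98, SE 0.258, adjusted p = 0.0154). Signals of mrpl-9 were 1513, 2162 and 2072, against 1155, 1003 and 1156 (log2 change 0.75, SE 0.223, adjusted p = 0.0335). Both genes had no overlap between the groups. For mrps-5 the arrays read 1059, 1027 and 1451, against 837, 715 and 1010, also without overlap, but the log2 change of 0.44 (SE 0.214) had an adjusted p of 0.246. The count of 2 was 0 without control replicate 1 or 2 or high-dose replicate 3, and 1 without control replicate 3 or high-dose replicate 2.

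Beside them hsp-60 fell by 0.78 at 4 h and 1.04 at 8 h of high acrylamide on the log2 scale. It was the only 1 called of 13 genes of the mitochondrial stress list at each time, with list medians of -0.23 and -0.11. Of the 6 translation factors 2 fell at 4 h, tsfm-1 by 0.91 and tufm-2 by 0.54, and 0 were called at 8 h. Respiratory chain and ATP synthase genes fell for 1 and 3 of 35 at 4 h and 8 h. Germline and oocyte markers fell for 1 and 11 of 15. The actin 3' to 5' log2 ratio at 8 h was 1.31 ± 0.169, against 0.970 ± 0.0950 in controls. That of GAPDH was -0.0222 ± 0.262, against 0.0737 ± 0.064. The summed germline and oocyte signal ranged from 8644 to 13530 at 4 h and 11020 to 13674 at 8 h of the high dose, against 13447 to 25939 and 21476 to 34865 in controls. Intestine markers fell for 4 and 6 of 10 (medians -0.79 and -1.11), and muscle markers for 1 and 2 of 10. The intestine sum ranged from 36979 to 48127 and from 27661 to 41522 at 4 h and 8 h of the high dose, against 53651 to 76296 and 50403 to 58241 in controls. The muscle sum ranged from 41790 to 45205 and from 26623 to 36058, against 53441 to 75385 and 46459 to 54377 in controls. Their part in these changes was not tested.

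Set side by side at 8 h of the high dose, the log2 changes of mrpl-9 were 0.75, 0.25 and 1.01 for acrylamide, cadmium and mercury, those of mrps-11 were 0.98, 0.33 and 0.73, and those of mrps-5 were 0.44, 0.10 and 0.88. The change of mrpl-44 was -0.41, -0.82 and -0.70, and on its second probe set -0.616, -0.725 and -0.451. On its probe set without a suffix it was -0.09, 0.071 and -0.22, so the sign turns for cadmium there. The doses are not matched in amount or in effect, so the test asks only whether these exposures differed. In 1 limma fit of all 80 arrays 0 of 58 genes were called for cadmium less acrylamide, mercury less acrylamide or cadmium less mercury, where 2.66%, 3.63% and 3.77% of all genes were called. At an unadjusted p under 0.05, 5 were lower in the first, 1 higher and 1 lower in the second, and 5 lower in the third. For mrps-5 cadmium less mercury was -0.78 (SE 0.306, adjusted p = 0.182) and for mrpl-9 -0.75 (SE 0.305, adjusted p = 0.202), so neither difference passed the test.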

How the data were processed

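Polyadenylated RNA of whole worms was hybridised to 80 single-colour expression arrays. The deposited values are an intensity, made by the authors with MAS5 per the submitters' processing notes and linear by their range. The MAS5 version and its target are not given in the sources used here, and 79 arrays have nearly the same trimmed mean. The 77 control probe sets among 22625 were removed; 20766 matched 1 gene symbol, 887 several and 895 none. Groups follow the sample titles.

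Each array was centred on the median of 202.9. Before log2, 51.8 was added as a pseudocount (the signals' 20th percentile), so fold changes of dim genes are understated. Probe sets with at least 3 arrays of a series over 132, the 40th percentile, were tested: 16477 for acrylamide, 16171 for cadmium, 15820 for mercury and 17785 over all arrays. Limma 3.58.1 in R 4.3.3 fitted 1 mean per group within each series, with a variance trend on signal level; residual degrees of freedom were 18, 17 and 18 by series and 53 over all arrays. P-values were adjusted by Benjamini-Hochberg over all probe sets of a contrast and called under 0.05. The slope is the linear contrast over equal dose steps. The number of arrays limits the precision. The procedure was tested on simulated data with independent noise and changes larger than most of those reported here. That test cannot show how well changes of the reported size are found, nor the effect of deviations shared by same-numbered arrays.

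The genes, lists and tests were chosen with earlier results of these data known. Genes named are, per high-dose comparison, up to 4 higher and 4 lower called genes without overlap, or else the smallest p; the 3 highest and 3 lowest signals; mrps-5 throughout; the gene called most often; and that of lowest correlation. Replicate numbers are shared by the groups. Same-numbered arrays deviated together (correlation over 0.1) in 37 of 53 pairs and in every pair of 7 of the 17 dose contrasts with 3 pairs. The main fits left all samples unpaired, also in those 7 contrasts. The replicate number entered only as a block in an alternative. Alternatives were the authors' scaling, quantile normalization, a pseudocount of 16, no filter, the replicate block, only the compared groups, probe sets without suffix, and each array left out. The order of genes was taken from RefSeq (WBcel235) only to find neighbours, no coordinates are printed, and no sequence is shown because no sequence file was at hand.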

Additional observations from a re-analysis of the deposited data

How the results depend on the processing

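Of 235 counts of called genes under alternatives other than leaving out an array, 191 stayed within 1.5 times the reported count. In the authors' scaling the counts were 0 (acrylamide high dose 4 h), 0 (acrylamide slope 4 h), 1 (acrylamide high dose 8 h), 0 and 25 (unexposed, acrylamide and mercury series), 10, 1 and 3 (cadmium slope 4 h, high dose 8 h and slope 8 h). With quantile normalization they were 5, 1, 5 and 7 (acrylamide slope 4 h, mid dose 8 h, high dose 8 h and slope 8 h), 21, 1 and 24 (unexposed, acrylamide, cadmium and mercury series), 11, 1 and 3 (cadmium slope 4 h, high dose 8 h and slope 8 h), 13 (mercury mid dose 8 h), and 1 each for cadmium and mercury less acrylamide. Fits of only the compared groups gave 0, 1 and 1 (acrylamide high dose 4 h, mid dose 8 h and high dose 8 h), 26 (unexposed, acrylamide series), 0, 4, 3 and 7 (cadmium mid dose 4 h, slope 4 h, high dose 8 h and slope 8 h), and 0 and 10 (mercury low and mid dose 4 h).

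With the replicate number as a block, the counts were 19 and 24 for mercury mid and high dose at 4 h, within 1.5 times. In these contrasts every same-numbered pair had deviated together. Elsewhere the block gave 5 (acrylamide slope 4 h), 10, 2, 5 and 2 (cadmium high dose 4 h, high dose 8 h, slope 8 h and unexposed), and 1 (cadmium less acrylamide).

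Without the acrylamide 0 h array that stood apart, the acrylamide slope at 4 h called 5. The remaining settings here were chosen after seeing the data: without cadmium mid dose 4 h replicate 1 the counts were 2, 12, 2, 6 and 1 (cadmium mid dose 4 h, high dose 4 h, high dose 8 h, slope 8 h and unexposed), and the authors' scaling without the acrylamide 0 h array gave 24.

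Leaving out each array in turn gave 0 to 4 (acrylamide high dose 4 h), 0 to 5 (its slope), 0 to 2 (high dose 8 h), 0 to 2 (cadmium unexposed), 2 to 25, 0 to 6 and 6 to 22 (cadmium mid dose, high dose and slope at 4 h), 0 to 1 and 0 to 4 (cadmium high dose and slope at 8 h), 0 to 1 (cadmium less mercury), and 0 to 1, 8 to 12, 11 to 16 and 2 to 6 (mercury low, mid and high dose at 4 h and mid dose at 8 h).

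Of 365 values of single named genes, 289 kept direction and side of the threshold, 64 lost the call and 7 gained one. Signs turned for mrpl-44 on the probe set without suffix, 0.094 for cadmium and 0.178 for mercury at 4 h of the high dose, and for mrps-5, never called there: -0.095 and -0.014 at 4 h of high acrylamide without high-dose replicate 2 and control replicate 3 (range -0.095 to 0.241 with each array left out), and -0.077 at 8 h of high cadmium without control replicate 3 (range -0.077 to 0.268). The causes were not tested. Signal over background limits mrps-31 and mrpl-45.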

Other observations

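Outside the family, the gene whose group means followed the mean of the family most closely was ndua-5, a complex I subunit, with a Pearson correlation of 0.944 over the 27 groups among 13531 genes compared. Next came lbp-4 (a fatty acid binding protein, 0.943), lsm-3 (an RNA-binding Sm-like protein, 0.942), tomm-22 (a receptor of the mitochondrial protein import pore, 0.938), T27F6.6 (0.938), eelo-2 (0.937), hint-1 (0.937) and ndua-8 (also complex I, 0.935). The groups share arrays, scaling and the strong change with time, and no p is given.

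Only 1 pair of these genes are direct neighbours among the protein-coding genes of the RefSeq annotation, mrps-2 and mrpl-4. Their group means correlated at 0.5 over the 27 groups.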
